A study of Mus musculus with 147 samples.

Results

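The 7 genes described here are grouped as markers of prospermatogonia, the germ cells of the fetal and newborn testis: Zxdc, Myog, Mef2c, Tie1, Krt18, Krt8 and Tspan8. They are 7 of the 31053 genes of the deposited table and were chosen by name. Mef2c and Krt8 were lower in germ cells than in somatic cells in 23 and 21 of 25 pools. Zxdc, Tie1, Myog, Mef2c and Krt18 were named by the study as prospermatogonia markers from these same cells, so their course over time is given as a description, with no test. Tspan8 was taken by the study from earlier work, to mark prospermatogonia in these cells, and Krt8 was not named by it. For these the course was tested. Both were grouped with the others when earlier results of these data were known, so the tests are not independent of that choice.

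Single cells of male mouse germ cells and gonads were sequenced with a modified STRT-seq, in which each transcript is counted once through a unique molecular identifier (UMI) near its 3′ end. The wild-type offspring of C57BL/6 females and males homozygous for the Blimp1-mVenus and Stella-ECFP transgenes (BVSC) were used at 15 time-points, daily from embryonic day (E13.5) to E18.5 and from the day of birth (postnatal day 0, PND0) to PND8. Each time-point has 2 replicates, and the cells of 1 replicate at 1 time-point are called a pool here, so that there are 30 wild-type pools. Helq null germ cells of E13.5, E14.5 and E15.5 (2 pools each) and of E18.5 (1 pool) came from mice bred from BVSC embryonic stem cells with a short deletion in both alleles of Helq, made with a guide to its first exon, and carry the transgenes too. Before birth cells were sorted on the transgenes, from E14.5 on the ECFP signal mainly, and after birth single cells with the shape of germ cells were picked by hand. The study calls the replicates biologically independent. Its sample list gives 1 as the number of embryos or male gonads used for each wild-type replicate from PND0 on, and more before birth. The replicates are not stated to come from separate litters, so p-values measure the spread between these pools.

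After filtering, 4757 wild-type cells remained, of which 3683 carried germ cell markers, 1016 carried markers of a somatic cell type and 58 were not classed. The libraries reuse 1 set of 96 cell barcodes, so that every barcode occurs in more than 1 library. Of the cells from the positive gate, 991 of 1042 were classed as germ cells, and of those from the negative gate 457 of 471 as somatic. In 1 pool, E17.5 replicate 1, 25 of 72 gate-positive cells carried somatic markers. The 30 germ pools held 25 to 186 cells and 11315670 to 55977340 UMIs, and the 25 somatic pools with at least 10 cells held 695892 to 15161794 UMIs. Germ cells had a median of 290213 UMIs and somatic cells 132904. Levels are counts of a gene scaled to the UMI total of its pool (CPM). A UMI stands for a transcript whatever its length, and levels are compared within a gene, not between genes.

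Male germ cells stop dividing in the fetal testis and remain quiescent as prospermatogonia until shortly after birth, when they resume division, move to the basement membrane and become spermatogonia. During the quiescent period their genome is methylated anew. Below, pools are named by day alone: before arrest for E13.5 and E14.5, quiescent for E16.5 to PND0, and spermatogonia for PND5 to PND8. These names do not hold for every cell, since the study saw arrested cells emerge from E13.5 and spermatocytes from PND5. The 7 genes are better known from other tissues. Myog (myogenin) and Mef2c are transcription factors of muscle differentiation, Tie1 is an orphan receptor tyrosine kinase of endothelial cells, Krt8 and Krt18 form the paired keratin filaments of simple epithelia, Tspan8 is a tetraspanin of the cell surface, and Zxdc is a zinc finger protein known to act with CIITA on MHC class II genes.

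The members lie on 6 chromosomes. On mm10 with the GENCODE M21 annotation, Zxdc spans chr6:90369492-90403490 on the plus strand, Myog chr1:134289989-134292548 on the plus strand, Mef2c chr13:83504034-83667080 on the plus strand, Tie1 chr4:118471191-118490061 on the minus strand and Tspan8 chr10:115816832-115849893 on the plus strand. The keratin genes are neighbours: Krt8 spans chr15:101996698-102004482 on the minus strand and Krt18 chr15:102028180-102032027 on the plus strand, with 23697 bases and no annotated gene between them. Exons of Zxdc overlap those of Cfap100 on the opposite strand, and whether the counting used strand is not given in the sources used here. Cfap100 itself was counted at 0 to 2.78 CPM in germ pools.

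The bases just upstream of Myog and of the keratin neighbours are shown, since Myog and MEF2 proteins are both among the products described and bind the motifs searched, and since Krt18 and Krt8 start on opposite strands of 1 locus. The stretches are from the RefSeq promoter table of GRCm38.p6, 5′ to 3′ on the strand of the gene, and stop at the start of the GENCODE gene span. Capitals mark matches on either strand to the E-box CANNTG, bound by myogenin and other basic helix-loop-helix factors, and to CTANNNNTA, a core of MEF2 sites. No match overlaps another.
Myog, chr1:134289754-134289988, plus strand: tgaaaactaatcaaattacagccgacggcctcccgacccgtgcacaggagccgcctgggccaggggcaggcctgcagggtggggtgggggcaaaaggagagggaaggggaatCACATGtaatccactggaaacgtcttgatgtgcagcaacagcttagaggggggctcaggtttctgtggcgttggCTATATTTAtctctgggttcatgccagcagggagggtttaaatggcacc
Krt18, chr15:102027966-102028179, plus strand: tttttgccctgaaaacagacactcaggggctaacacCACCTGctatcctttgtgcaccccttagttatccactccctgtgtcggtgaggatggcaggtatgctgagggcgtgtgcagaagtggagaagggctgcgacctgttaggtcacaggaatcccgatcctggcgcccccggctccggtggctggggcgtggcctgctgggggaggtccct
Krt8, chr15:102004483-102004592, minus strand: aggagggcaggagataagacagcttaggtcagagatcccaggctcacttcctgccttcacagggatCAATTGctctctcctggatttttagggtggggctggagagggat
Myog has 1 match to the MEF2 core, 64 bases upstream of the RefSeq start. Of 32851 mouse promoters of 250 bases, 19% hold the MEF2 core and 66.2% an E-box, so that an E-box in these stretches is common. The 250 bases of Krt18 hold 12 CpG dinucleotides and those of Krt8 hold 3, against a median of 6.

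Among the transcription regulators, Zxdc was low at E13.5 (11.7 and 7.96 CPM in the 2 pools) and E14.5 (18.97 and 13.9 CPM). At E15.5 the pools were at 77 and 28.7 CPM. It was then at 120.5 and 99.7 CPM at E16.5, 93.8 and 182 CPM at E17.5, 127.1 and 83.1 CPM at E18.5, and 74.6 and 90.9 CPM at PND0. These 8 pools, all above every pool of E13.5 and E14.5, averaged 108.9 ± 34.3 CPM (SD, n = 8), against 13.1 ± 4.60 CPM (n = 4) before. At PND1 the mean of Zxdc was 28.2% of its highest time-point mean, the lowest such share of the 7. It stood at 18.6 and 59.1 CPM at PND1, 28.9 and 11.7 CPM at PND2, and 5.62 to 10.6 CPM in the 4 pools of PND3 and PND4. From PND5 to PND8 the lowest, median and highest pools were at 5.55, 10.48 and 19.7 CPM. Ordered by the mean of each time-point, Zxdc was highest at E17.5, and in all 14 neighbouring steps of that order the pools overlapped.

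Myog, the muscle regulator whose product drives myoblasts into differentiation, was counted at 1.63 and 1.64 CPM at E13.5, 3.23 and 3.28 CPM at E14.5, and 5.80 and 3.62 CPM at E15.5. It reached 26.4 and 13.6 CPM at E16.5, 62.7 and 70.3 CPM at E17.5, 90.2 and 73.5 CPM at E18.5, and 44.8 and 74.7 CPM at PND0. Both pools of E18.5 lay above both of E17.5, and all 8 pools of E16.5 to PND0 lay above the earlier ones. The values after birth were 14.8 and 48.8 CPM at PND1, 16.7 and 8.26 CPM at PND2, 3.20 and 7.61 CPM at PND3, and 1.66 and 5.71 CPM at PND4. In spermatogonia of PND5 to PND8 the 8 pools held 0.488 to 2.22 CPM, with a median of 1.38 CPM, against a median of 2.44 CPM before arrest.

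Mef2c, a MADS-box factor that acts with myogenic regulators, was near 0 at E13.5 (0.497 and 0 CPM) and E14.5 (1.02 and 1.40 CPM). It was at 12.5 and 3.92 CPM at E15.5, 44.2 and 50.8 CPM at E16.5, 88.8 and 90.2 CPM at E17.5, 109.5 and 103.8 CPM at E18.5, and 96.3 and 99.5 CPM at PND0. In the order E18.5, PND0, E17.5 the pools of neighbouring time-points did not overlap. After birth its pools were at 31.9 and 73.6 CPM at PND1, 41.1 and 16.2 CPM at PND2, 3.53 and 15.1 CPM at PND3, and 1.26 and 7.92 CPM at PND4. The 8 pools of PND5 to PND8 ranged from 2.72 to 9.01 CPM, with a median of 5.01 CPM, and all 8 lay above the highest pool before arrest.

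Tie1, the receptor, was not counted in 3 of the 4 pools of E13.5 and E14.5, and the fourth, E14.5 replicate 1, held 0.511 CPM. It was at 9.37 and 2.33 CPM at E15.5, 44.3 and 32.97 CPM at E16.5, 97.1 and 143.4 CPM at E17.5, 158 and 174 CPM at E18.5, and 110.5 and 167 CPM at PND0. All 8 pools of E16.5 to PND0 lay above every earlier one. The later values were 30.3 and 123.1 CPM at PND1, 40.7 and 22.2 CPM at PND2, 3.28 and 14.98 CPM at PND3, and 1.64 and 4.62 CPM at PND4. From PND5 to PND8 the lowest, median and highest pools were at 0.761, 1.75 and 3.27 CPM, none of them at 0.

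The keratins stayed near their highest level after birth. Krt18, the acidic keratin of the pair, was at 9.01 and 8.60 CPM at E13.5, 6.67 and 3.92 CPM at E14.5, and 31 and 6.00 CPM at E15.5. It stood at 78.99 and 64.5 CPM at E16.5, 205 and 191 CPM at E17.5, 213 and 239 CPM at E18.5, and 221 and 235 CPM at PND0. At PND1 it was still at 187 and 229 CPM and at PND2 at 186 and 124.4 CPM (68.1% of its highest mean), when Zxdc was at 14.7% and Myog at 15.2% of theirs. It was at 22.1 and 95.7 CPM at PND3, 23.6 and 59.7 CPM at PND4, and 2.98 to 28.4 CPM from PND5 to PND8, with a median of 7.47 CPM. In the order PND0, E18.5, PND1, E17.5 of the highest means, the pools of each neighbouring pair overlapped, while both pools of E17.5 lay below those of PND0 and E18.5.

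Krt8, the basic partner, was at 7.84 and 2.14 CPM at E13.5, 6.64 and 4.27 CPM at E14.5, and 11.8 and 6.46 CPM at E15.5. In the quiescent pools it was at 33.7 and 19.6 CPM at E16.5, 35.2 and 33.5 CPM at E17.5, 35.3 and 37.3 CPM at E18.5, and 52.01 and 43.8 CPM at PND0. It was highest at PND1, with 49.9 and 50.98 CPM, overlapping the pools of PND0, and then stood at 27.5 and 23.3 CPM at PND2. At PND3 the pools were at 2.80 and 22.9 CPM and at PND4 at 5.93 and 10.1 CPM. Of the 8 pools of PND5 to PND8, 7 held 0.447 to 4.16 CPM and PND8 replicate 1 held 24.6 CPM.

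Tspan8, the cell surface protein, was at 10.6 and 0.455 CPM at E13.5 and 26.1 and 21.4 CPM at E14.5. At E15.5 it was at 114.5 and 71.6 CPM, and the mean there was 52.6% of its highest time-point mean, the largest such share of the 7. From E16.5 to PND0 the 8 pools held 144.6 to 178 CPM with a mean of 167 ± 11.2 CPM (SD, n = 8). In the order E17.5, E16.5, PND0, E18.5 of the means the pools of neighbours overlapped, while both pools of E17.5 lay above those of PND0 and E18.5. It was at 85.1 and 125.1 CPM at PND1, 52.9 and 56.9 CPM at PND2, 11.1 and 66.8 CPM at PND3, 18.1 and 54.6 CPM at PND4, and 2.76 to 40.7 CPM (median 12.9) from PND5 to PND8. Relative to the mean, this SD was the smallest of the 7.

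**Figure D1:**
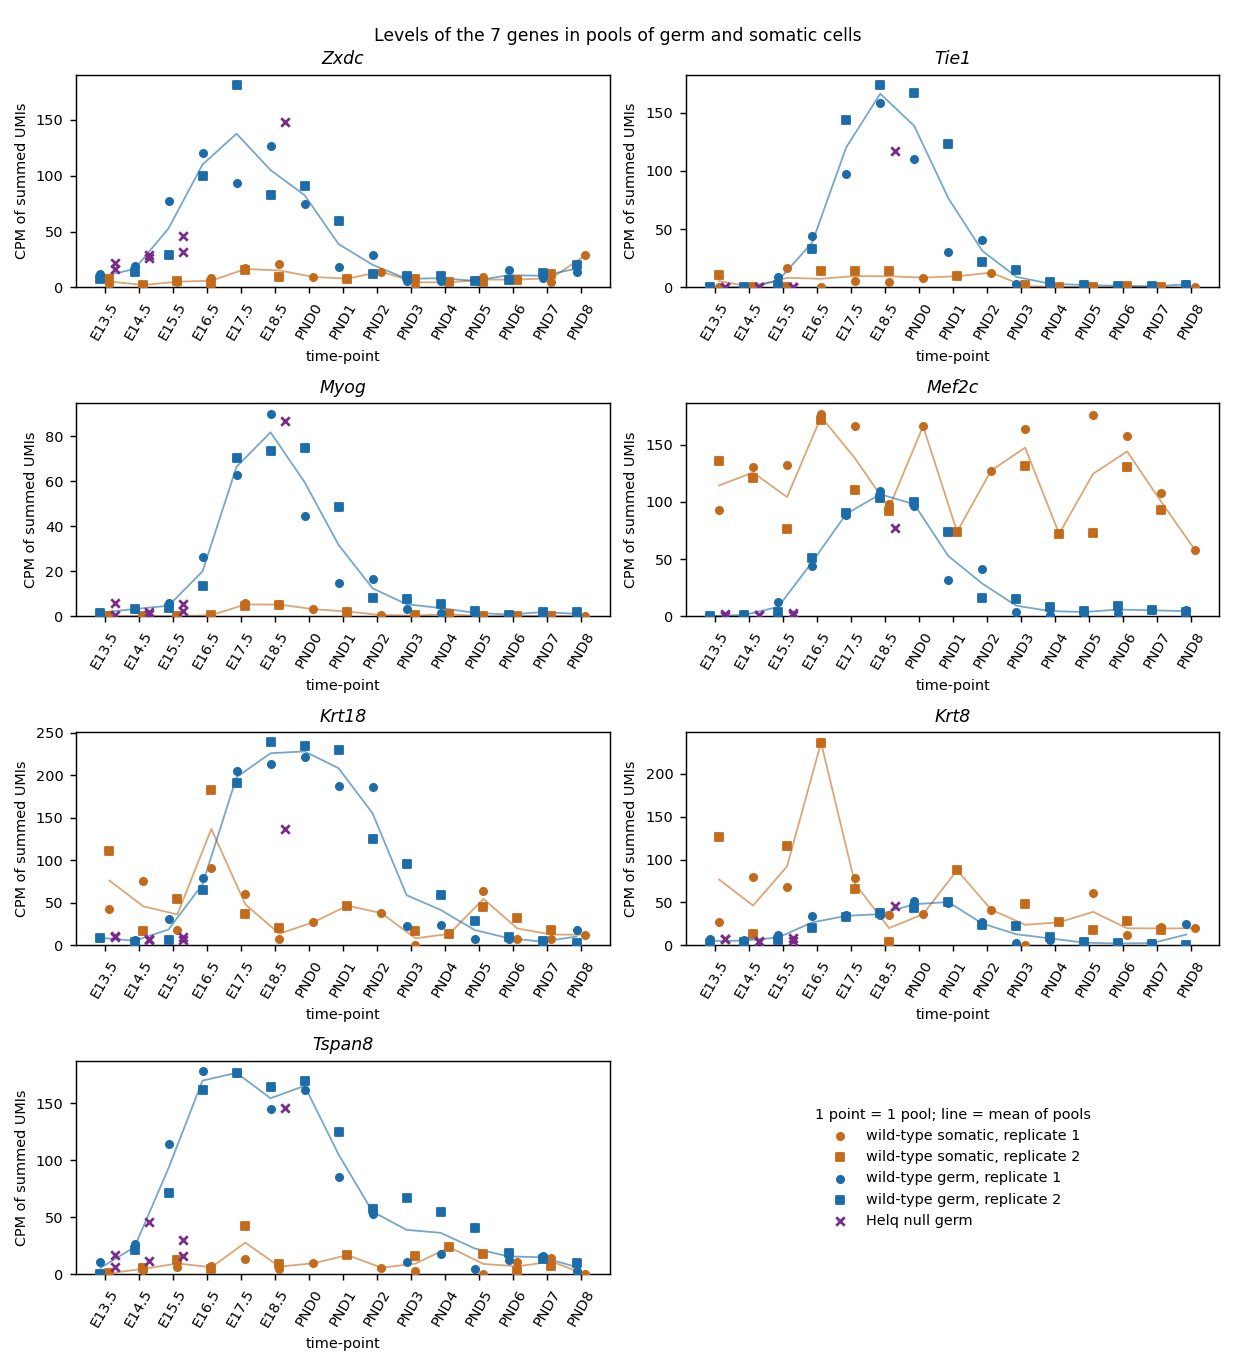
Levels of the 7 genes (CPM of the summed UMIs, vertical axis) by time-point from E13.5 to PND8 (horizontal axis), 1 point per pool. Wild-type germ, wild-type somatic and Helq null germ pools are shown, with lines for the means of the wild-type pools. In wild-type germ cells Tspan8 was already at 114.5 and 71.6 CPM at E15.5, Zxdc was highest at E17.5 and Krt18 still stood at 187 and 229 CPM at PND1.

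**Figure D2:**
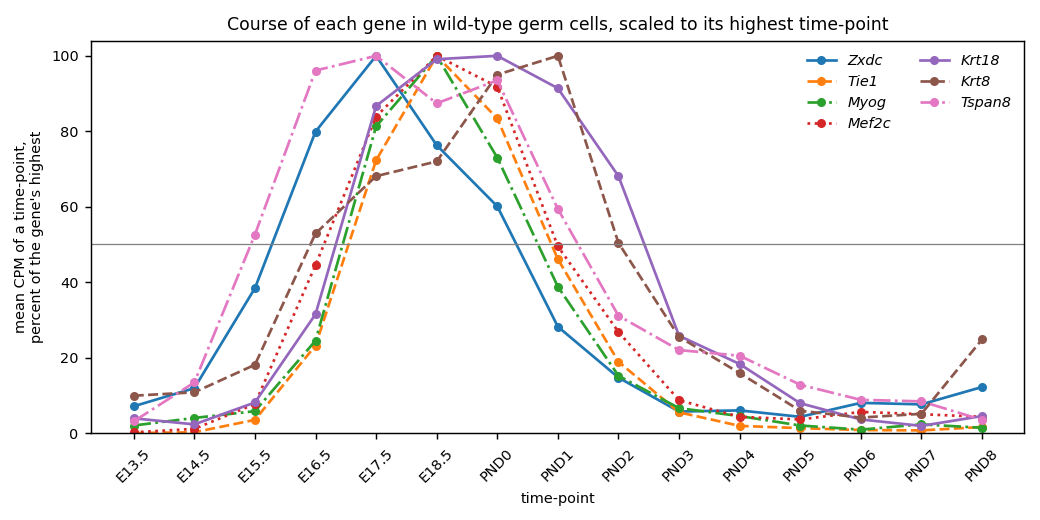
Mean level of each gene at each time-point as a percentage of its own highest time-point mean (vertical axis) against time-point (horizontal axis). At E15.5 Tspan8 is at 52.6% and Tie1 at 3.5%, and at PND1 Zxdc is at 28.2% while Krt18 and Krt8 are at 91.4% and 100% of their peak.

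From PND1 to PND4 the 2 pools of a time-point often differed in the same direction across the members. At PND1 replicate 2 was the higher for all 7 genes, as in Tie1 with 123.1 against 30.3 CPM, and at PND3 and PND4 it was the higher for all 7 as well. At PND2 replicate 1 was the higher for all but Tspan8. After thinning to 50000 UMIs, the proliferation gene Mki67 had a UMI in 49.4% of the germ cells of PND1 replicate 1 and in 30.5% of those of replicate 2 (73.1% and 58.7% without thinning). Its part in the difference was not tested.

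The window from E16.5 to PND0 was compared with E13.5 and E14.5 for Krt8, Tspan8 and lists of related genes, in 1 edgeR quasi-likelihood fit over the 30 germ pools and 25312 genes (adjusted p under 0.05). In that fit 10187 genes (40.2%) were higher in the quiescent window and 6609 (26.1%) lower. The median of all genes was +1.14 on the log2 scale, and differences are given beside it. It is not a shift shared by every gene, and as the fit scales pools by TMM, its differences are not those of CPM. The germ cell gene Ddx4, at 415 CPM before and 399 CPM in the window, was at -0.72 ± 0.11 in the fit. Tspan8 was higher by 3.21 ± 0.58 (log2 difference ± SE, edgeR adjusted p = 3.19e-05) and Krt8 by 2.11 ± 0.60 (edgeR adjusted p = 0.00358). The 95% interval of Tspan8, 2.07 to 4.34, lay above the median of all genes, and that of Krt8, 0.93 to 3.29, included it. Leaving out each of the 12 pools in turn gave 2.81 to 5.01 for Tspan8, with the highest value without E13.5 replicate 1, and 1.86 to 2.73 for Krt8, again highest without that pool. Both were called in all 12 of these fits.

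From the quiescent window to the spermatogonia of PND5 to PND8, 7087 genes (28%) were higher and 9675 (38.2%) lower, with a median of -0.50. Tspan8 fell by 3.20 ± 0.43 on the log2 scale (edgeR adjusted p = 4.7e-07) and Krt8 fell by 2.80 ± 0.47 (edgeR adjusted p = 1.35e-05). Leaving out 1 of the 16 pools gave -3.78 to -2.99 for Tspan8. For Krt8 the same gave -3.97 to -2.55, the largest fall being without PND8 replicate 1, the pool with 24.6 CPM.

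The share of cells with at least 1 UMI was compared after each cell was thinned to 50000 UMIs, and cells with fewer were left out. In the quiescent window this kept 742 of 771 germ cells and 218 of 248 somatic cells. In the 8 quiescent pools Tspan8 had a UMI in 98% ± 1.57 of germ cells (SD), Krt18 in 96.3 ± 7.09%, Zxdc in 91.3 ± 4.35%, Tie1 in 84.6 ± 16.7%, Mef2c in 81.9 ± 13.02%, Myog in 68.4 ± 18.1% and Krt8 in 59.8 ± 7.73%. Without thinning the shares ran from 85.3% for Myog to 99.8% for Tspan8. Before arrest the thinned shares were 29.9% for Zxdc, 22.2% for Tspan8, 16.8% for Krt18, 14.9% for Krt8, 5.26% for Myog, 3.02% for Mef2c and 0.28% for Tie1. In the mean over pools, each gene was thus found in most cells of the quiescent window. In the lowest of these pools the thinned share was 40.45% for Myog and 47.2% for Krt8.

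**Figure D3:**
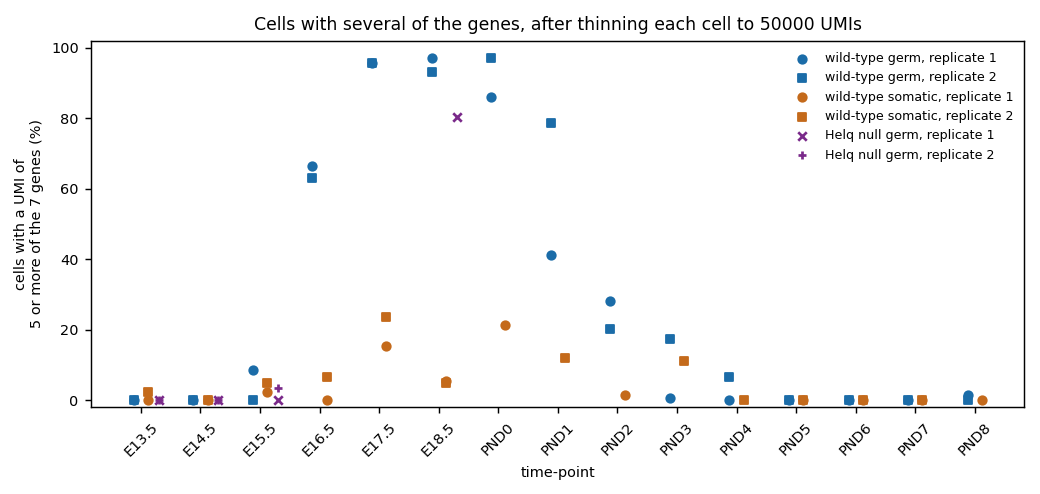
Share of thinned cells with a UMI of at least 5 of the 7 genes (vertical axis, percent of cells) at each time-point (horizontal axis). There is 1 point per pool with at least 10 thinned cells, for wild-type germ, wild-type somatic and Helq null germ cells. Wild-type germ pools are at 62.9 to 97.2% from E16.5 to PND0 and at 0 to 1.3% from PND5 to PND8.

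The 7 genes were found together in single cells. At least 5 of them had a UMI in no thinned germ cell of the 4 pools before arrest, in 8.5 and 0% at E15.5, 66.3 and 62.9% at E16.5, 95.6 and 95.7% at E17.5, 97.1 and 93% at E18.5, and 86 and 97.2% at PND0. After birth the share was 41.1 and 78.6% at PND1, 28 and 20.2% at PND2, 0.6 and 17.2% at PND3, and 0 and 6.6% at PND4. All 7 were found in 10.1 to 45.8% of the cells of a quiescent pool. Of thinned somatic cells of the 7 quiescent pools with enough of them, 0 to 23.5% had at least 5 of the genes, with a mean of 10.96%. None had all 7. The study named 5 of the genes from these same cells, so the shares are a description without a test. Whether they exceed what the share of each gene alone would give was not tested.

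Germ cells were next compared with the somatic cells of the same pools, a comparison that was not used to name the genes. In the fit over 25 pools and 23670 genes, with the pool as block, 11400 genes (48.2%) were higher in germ cells and 5499 (23.2%) lower, with a median of +0.77, and 6 of the 7 members passed the threshold. Of these, 4 were higher in germ cells: Myog by 3.87 ± 0.33 (log2 difference ± SE, edgeR adjusted p = 1.58e-11), Tspan8 by 2.35 ± 0.31 (adjusted p = 1.01e-07), Tie1 by 2.30 ± 0.56 (adjusted p = 0.000569) and Zxdc by 1.51 ± 0.29 (adjusted p = 4.45e-05). Mef2c and Krt8 were lower, with differences of -3.74 ± 0.49 (adjusted p = 9.08e-08) and -2.25 ± 0.37 (adjusted p = 3.12e-06). Krt18 was not called (-0.18 ± 0.48, adjusted p = 0.754, 95% interval -1.13 to 0.77). With 48.2% of all genes called higher, 4 of 7 is a share near the background. Tie1 was no longer called without replicate 1 (1.71, adjusted p = 0.0737) or when the sorting gate alone gave the class before birth (1.89, adjusted p = 0.0889).

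Myog was higher in germ cells in 25 of 25 pools. In the 7 quiescent pools with both classes it was at 54.5 ± 27.4 CPM in germ cells and 3.62 ± 2.28 CPM in somatic cells (SD), and in the 7 spermatogonia pools at 1.29 ± 0.69 and 0.10 ± 0.10 CPM. Tspan8 was higher in 24 of 25 pools, with 166 ± 12.1 against 12.9 ± 13.4 CPM in the quiescent pools, and Zxdc in 22 of 25, with 111.48 ± 36.2 against 12.1 ± 6.10 CPM. Tie1 was higher in 21 of 25, with 108.68 ± 54.8 against 8.86 ± 5.61 CPM. Outside that window the excess was not general. In the spermatogonia pools Zxdc was at 9.85 ± 4.11 CPM in germ cells and 10.51 ± 8.51 CPM in somatic cells, higher in 4 of 7. Before arrest Tie1 was at 0.13 ± 0.26 against 2.89 ± 5.42 CPM, higher in 1 of 4 pools. At E15.5 Tie1 was at 5.85 ± 4.98 against 8.25 ± 11.41 CPM, and in spermatogonia it was higher in 7 of 7 pools. Ddx4, a germ cell gene that somatic cells lack, was itself at 25.8 ± 12.6 CPM in the somatic pools of that window and at 399 ± 50.4 CPM in the germ pools. After thinning, 66.3% of these somatic cells had a UMI of Ddx4, against 31.9% for Tspan8, 27.7% for Zxdc, 27.1% for Tie1 and 15.7% for Myog. What part of the somatic levels is free RNA of germ cells was not tested.

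Mef2c was lower in germ cells in 23 of 25 pools. Before arrest it was at 0.73 ± 0.61 CPM in germ cells and 120 ± 18.9 CPM in somatic cells, in the quiescent pools at 83.4 ± 25.6 and 140.04 ± 38.1 CPM, and in the spermatogonia pools at 5.07 ± 2.09 and 113.61 ± 43.6 CPM. The 2 pools in which germ cells were higher were both in the quiescent window. By somatic cell class, Mef2c was at 157 CPM in 404 Sertoli cells, 96.8 CPM in 547 interstitial and peritubular cells and 93.4 CPM in 52 Leydig cells. Endothelial and macrophage classes, where Mef2c is also known, held only 7 and 6 cells, with 382 and 286 CPM.

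The keratins of somatic cells differed from those of germ cells in their proportion in most pools, but not consistently at E13.5 and E14.5. Krt8 was lower in germ cells in 21 of 25 pools, with 35.2 ± 9.46 against 98.97 ± 96.8 CPM in the quiescent window. Krt18 was higher in germ cells in 5 of the 7 quiescent pools and in all 5 pools of PND1 to PND4 with both classes, and lower in all 4 before arrest. Sertoli cells held 126.5 CPM of Krt8 and 75.7 CPM of Krt18, and interstitial cells 40.2 and 35.3 CPM. In 24 pools with both classes and both transcripts, the log2 ratio of Krt8 to Krt18 UMIs was -1.59 ± 1.07 in germ cells and 0.45 ± 1.02 in somatic cells (SD). It was lower in germ cells in 22 of 24 pools, by 2.04 ± 1.40, and a two-sided sign-flip permutation test over pools gave p = 2e-05, the smallest that 100000 resamples can give. The exceptions were E13.5 replicate 1 (-0.20 in germ cells, -0.63 in somatic cells) and E14.5 replicate 2 (0.12 and -0.27). In E14.5 replicate 1 the classes were close, at -0.01 and 0.07.

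**Figure D4:**
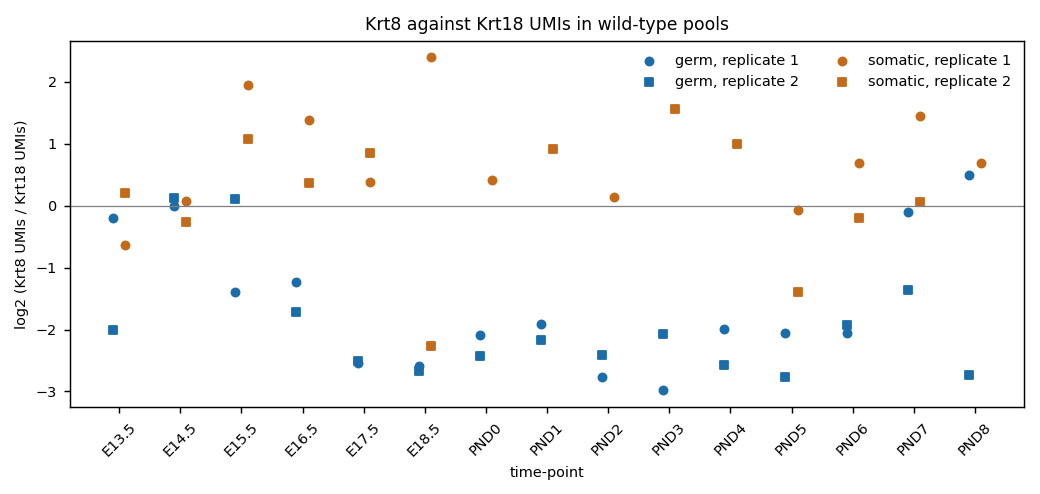
Log2 ratio of Krt8 UMIs to Krt18 UMIs (vertical axis) in germ and somatic cells of each wild-type pool by time-point (horizontal axis), with a separate symbol for each replicate. From E17.5 to PND6 the germ pools lie at or below -1.91, while most somatic pools lie above 0.

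In the ratio the 4 germ pools of E13.5 and E14.5 were at 0.87, 0.249, 0.995 and 1.09 Krt8 UMIs per Krt18 UMI. From E17.5 to PND6 the germ pools lay between 0.127 and 0.266. At PND7 they were at 0.932 and 0.391, and at PND8 replicate 1 was at 1.41 and replicate 2 at 0.15. PND8 replicate 1, with 1060 Krt8 and 753 Krt18 UMIs, was thus the germ pool richest in Krt8 relative to Krt18.

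The 7 endothelial cells found held 420 CPM of Tie1 (exact Poisson 95% interval 383 to 459, counting error only), beside 474 CPM of Cdh5 and 596 CPM of Kdr, genes that define endothelial cells. In the 8 quiescent germ pools Cdh5 was at 5.85 ± 1.31 CPM and Kdr at 6.73 ± 2.77 CPM (SD), and before arrest at 0.608 and 0.42 CPM. The endothelial list of 12 genes, none of them at 0 in all quiescent pools, summed to 268 to 356 CPM there and to 86.97 to 114.87 CPM before arrest. Egfl7 (157 ± 32.6 CPM), Plvap (48.5 ± 21.4 CPM) and Flt1 made up most of the sum. The part of endothelial RNA in the level of Tie1 was not tested.

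Lists of genes related to each member were then read in the same comparisons of windows, with the counts of edgeR calls beside those of all genes (40.2% higher and 26.1% lower into the quiescent window). Of 20 tested genes of muscle differentiation, 15 were higher and 2 lower in the quiescent window than before it, and the median was +4.15 (DESeq2: 16 and 2). Ttn, which encodes the giant sarcomere protein titin, was higher by 4.46 ± 0.22 (adjusted p = 3.85e-14), with 5.07 CPM before, 156 CPM in the window and 55.1 CPM in spermatogonia. Myl1, a myosin light chain, was at 0.027 CPM before and at 15.3 CPM in the window, and Actc1, the cardiac actin, at 0.286 and 30.9 CPM. The 2 lower genes were Tnnt1, a slow troponin T (198 to 110.6 CPM), and Mymx, a myoblast fusion peptide (6.49 to 2.38 CPM). In spermatogonia 14 of the 20 were lower and 1 higher, Cdh15, or M-cadherin, by 1.15 ± 0.18 (adjusted p = 4.7e-06).

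The other myogenic regulators did not accompany Myog at its level. Myod1 was at 0.763 CPM before arrest and 1.00 CPM in the window, with a log2 difference of -0.26 ± 1.20 that did not pass. Myf5 and Myf6 averaged 0.143 CPM each in the window and reached at most 0.764 and 0.426 CPM in any of its pools. These were named after their values were seen.

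**Figure D5:**
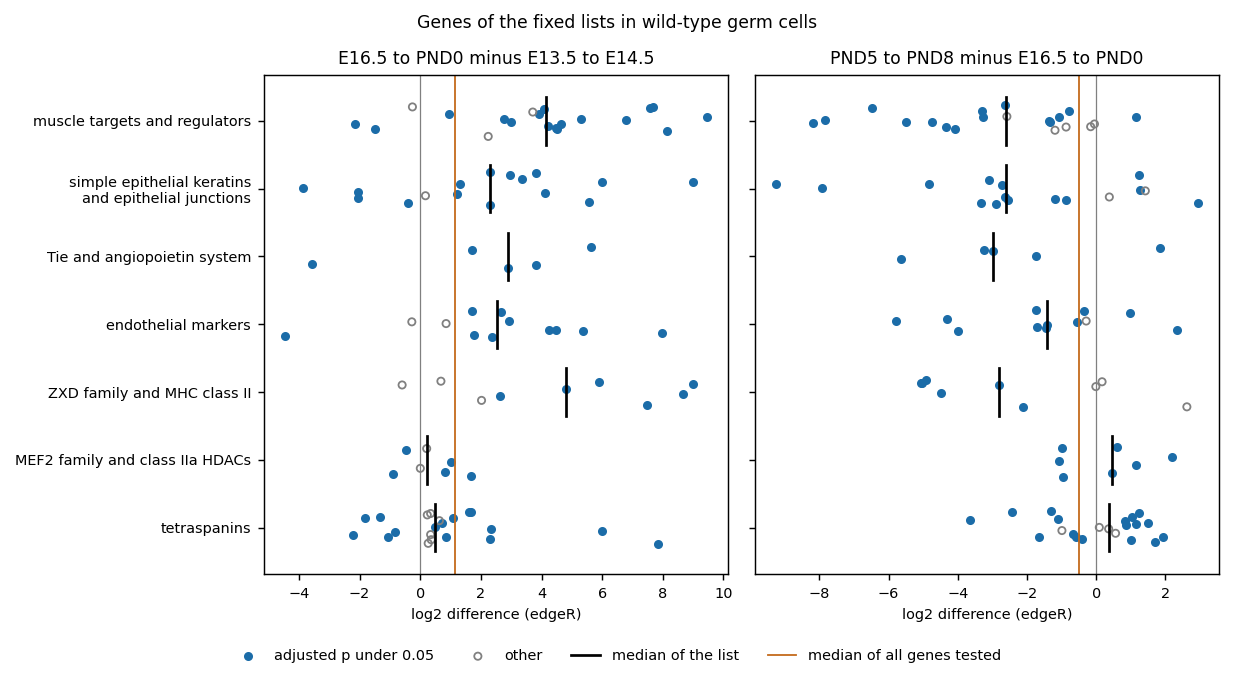
Log2 differences of the genes of each list (1 point per gene, horizontal axis) between windows of wild-type germ cells, by list (vertical axis), filled where edgeR's adjusted p was under 0.05. The black bar is the median of the list and the orange line the median of all genes. The muscle, keratin, Tie and MHC class II lists lie mostly to the right of that line on entry into the quiescent window and to its left on leaving it.

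The MEF2 family and the class IIa histone deacetylases that bind it did not move as a group. Of 7 tested, 3 were higher and 2 lower in the quiescent window (DESeq2: 4 and 1), with a median of +0.21 that is below the median of all genes. Mef2b was at 16.47 CPM before, 43.3 CPM in the window and 140 CPM in spermatogonia, higher by 1.01 ± 0.31 and then by 2.18 ± 0.25 (adjusted p = 0.00667 and 3.88e-08). Hdac5 was higher by 0.80 ± 0.17 (adjusted p = 0.000292) and Hdac9 by 1.66 ± 0.47 (adjusted p = 0.00338), and Mef2d fell by 0.90 ± 0.21 (adjusted p = 0.000798). Towards spermatogonia 4 were higher and 3 lower with edgeR, and 2 and 3 with DESeq2.

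Of 16 tested keratin and epithelial junction genes, 11 were higher and 4 lower in the quiescent window, with a median of +2.30. The keratins of this list, Krt5 and Krt14 among them, are not all of simple epithelia. In spermatogonia 3 were higher and 11 lower (DESeq2: 11 and 3, then 3 and 11). Krt7 was at 6.68 CPM before, 58.9 CPM in the window and 4.02 CPM in spermatogonia, higher by 2.31 ± 0.47 (adjusted p = 0.000144). Krt20 was at 0 CPM before and 2.29 CPM in the window, and Krt5 at 0.128 and 2.97 CPM. The 4 lower genes were Epcam, Cdh1, Cldn3 and Pkp2, while other junction genes of the list, such as Dsp (2.96 ± 0.56, adjusted p = 6.23e-05) and Jup (1.20 ± 0.30, adjusted p = 0.001), were higher. Epcam fell by 2.04 ± 0.12 (adjusted p = 4.28e-13), from 329 to 126.3 CPM, Cdh1, or E-cadherin, fell by 3.86 ± 0.23 (adjusted p = 6.81e-13), from 64.3 to 7.65 CPM, and Pkp2 fell by 0.41 ± 0.17 (adjusted p = 0.0338) in the fit while its CPM went from 63.1 to 75.5. The tight junction gene Cldn3 was higher in spermatogonia by 2.95 ± 0.24 (adjusted p = 1.14e-10).

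Of the 5 tested partners of Tie1, 4 were higher and 1 lower in the quiescent window, and 1 was higher and 4 lower in spermatogonia. Ptprb, the phosphatase that restrains the Tie receptors, was at 2.31 CPM before, 27 CPM in the window and 2.12 CPM in spermatogonia, higher by 2.88 ± 0.42 (adjusted p = 2.03e-06). Tek, the receptor of the angiopoietins, was at 1.80, 9.22 and 2.28 CPM. The ligand Angpt4 was at 0.017 CPM before and 1.80 CPM in the window, and Angpt2 fell by 3.57 ± 0.48 (adjusted p = 5.47e-07), from 4.61 to 0.792 CPM. Of the 12 endothelial markers 9 were higher and 1, Cldn5, lower in the window.

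Of 9 genes around Zxdc, its paralog Zxdb, Ciita, MHC class II genes and the chemokine gene Ccl2 among them, 6 were higher in the quiescent window and none lower, with a median of +4.79. H2-Ab1 was at 0.321 CPM before, 91.8 ± 45.6 CPM in the window and 2.55 CPM in spermatogonia, H2-Aa at 0.35, 34.9 and 0.757 CPM, and H2-Eb1 at 2.21, 47.5 and 4.96 CPM. These encode the chains of MHC class II molecules of antigen-presenting cells, and H2-Eb1 was higher by 4.79 ± 0.55 (adjusted p = 4.57e-08). Ciita, the class II transactivator, was at 0.034 and 3.93 CPM, and the invariant chain Cd74 was at 2.59 and 6.84 CPM (log2 difference 0.68 ± 0.64, adjusted p = 0.369). In spermatogonia 6 were lower and none higher, and DESeq2 gave the same counts in both comparisons. Of 7 macrophage markers 3 were higher in the window, Fcer1g, Csf1r and Ptprc. Fcer1g, the Fc receptor chain, went from 1.98 to 133.3 CPM, while Csf1r was at 0.025 and 1.17 CPM and Ptprc at 0.016 and 2.04 CPM. C1qb, at 0 and 1.34 CPM, was not called.

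Tetraspanins other than Tspan8 changed in both directions. Of 21 tested, 10 were higher and 5 lower in the quiescent window, with a median of +0.50, below that of all genes (DESeq2: 13 and 5), and in spermatogonia 9 were higher and 8 lower (DESeq2: 8 and 8). The abundant Tspan3 fell by 1.34 ± 0.12 (adjusted p = 2.82e-10), from 303 to 190 CPM, and Cd9 by 0.82 ± 0.15 (adjusted p = 3.74e-05), from 196 to 176 CPM. Tspan12 was at 2.57, 19.9 and 1.28 CPM in the 3 windows and was lower in spermatogonia by 3.66 ± 0.42 (adjusted p = 4.1e-08). Cd81 was the largest gain towards spermatogonia, 1.94 ± 0.13 (adjusted p = 7.29e-12).

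Genes of the prospermatogonia and stem cell state served as a check of the windows. Of 15, 8 were higher and 5 lower in the quiescent window, and 8 higher and 4 lower in spermatogonia. Dnmt3l, the cofactor of new DNA methylation, was at 13.52 CPM before, 342 CPM in the window and 4.45 CPM in spermatogonia, Mki67 at 143.02, 18.2 and 144.8 CPM, and Gfra1, the GDNF receptor of stem cells, at 0.314, 3.18 and 30.9 CPM. Of 8 germ markers 2 were higher and 6 lower in the window (DESeq2: 2 and 5). In spermatogonia edgeR called 3 higher and 0 lower, while DESeq2 called 2 higher and 5 lower, so the 2 tools differed in direction there. These calls did not always follow CPM. Stk31 was called lower in the window (-0.49 ± 0.11) while it went from 381 to 429 CPM. Ddx4 was called lower (-0.72 ± 0.11) and then higher (0.45 ± 0.09) while it stood at 415, 399 and 400 CPM. Of the other lists, 4 of 8 Sertoli, 6 of 8 interstitial, 0 of 5 Leydig and 3 of 6 erythroid markers were higher in the window and none lower (DESeq2: 5, 7, 2 and 4), and their sums in germ pools were 121.97 to 416, 54.9 to 206, 15.9 to 596 and 156 to 492.5 CPM, against 16.3 to 41.2, 1.59 to 29.9, 2.36 to 46.75 and 10.4 to 692 CPM before arrest. The part of such RNA in the levels of Krt8, Krt18 and Mef2c, which somatic cells also hold, was not tested. Towards spermatogonia 1 Sertoli marker was higher, and 1 interstitial, 2 Leydig, 2 macrophage and 4 erythroid markers were lower.

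Over the 30 germ pools, the genes most like 6 of the members in log2(CPM + 1), among 10588 genes with a mean of at least 10 CPM, are given with Pearson's r as a description. The pools share time-points, and all pools of a window move together. Tie1 was closest to Gm48657 (r = 0.987), Mef2c to Serping1 (0.979), Zxdc to Zfp30 (0.969), Krt18 to Krt7 (0.963), Tspan8 to Myo18b (0.932) and Krt8 to Krt7 (0.91). The next were Fam217a and Gm5935 for Tie1, Gsn and Ctnna2 for Mef2c, Cry1 and Fam160a2 for Zxdc, Ldha and S100a16 for Krt18, Glt8d1 and Nab1 for Tspan8, and Krt18 and S100a16 for Krt8. Among the members, r ran from 0.638 for Zxdc and Krt18 to 0.971 for Tie1 and Mef2c.

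The Helq null germ cells, compared at E13.5 to E15.5, did not differ in any member past the threshold. In this fit of 12 pools and 18353 genes, with time-point as covariate, 30 genes (0.163%) were higher in the null and 40 (0.218%) lower by edgeR, 1977 at an unadjusted p under 0.05, and DESeq2 called 226 and 238. The differences (null minus wild type, log2) were 0.40 for Zxdc (95% interval -0.13 to 0.94), -0.17 for Myog (-1.28 to 0.94), 0.01 for Mef2c (-1.08 to 1.09), -2.91 for Tie1 (-5.87 to 0.05), -0.21 for Krt18 (-0.97 to 0.55), -0.12 for Krt8 (-0.85 to 0.62) and -0.21 for Tspan8 (-1.43 to 1.02). The intervals of Tie1, Myog, Mef2c and Tspan8 are wide, since these genes were near 0 or variable at the times compared. Without replicate 2 Tspan8 was called lower (-1.56 ± 0.39, adjusted p = 0.0344) and without replicate 1 it was at 1.3 and not called. The interaction of genotype with time-point was called for 0 of 19615 genes, and its unadjusted p for Tspan8 was 0.0849.

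The values show where the pools differed. At E15.5, when wild-type germ cells held 114.5 and 71.6 CPM of Tspan8, the null pools held 16.3 and 29.6 CPM, below both. At E14.5 they held 11.6 and 46.02 CPM, on either side of the wild type. Tie1 was at 0 and 0.792 CPM in the null at E15.5 against 9.37 and 2.33 CPM, and Mef2c at 2.71 and 1.46 CPM against 12.5 and 3.92 CPM. In the single null pool of E18.5, with no replicate, all members were within the range of the 8 quiescent wild-type pools: Zxdc 148 CPM, Myog 86.8 CPM, Mef2c 77.5 CPM, Tie1 117.2 CPM, Krt18 136.2 CPM, Krt8 45.5 CPM and Tspan8 145.5 CPM. Set against the 2 wild-type pools of the same day, Krt18 lay below both (213 and 239 CPM), as did Tie1 (158 and 174 CPM) and Mef2c (109.5 and 103.8 CPM), Zxdc and Krt8 lay above both, and Myog and Tspan8 lay between them. Of its thinned cells 53 of 66 (80.3%) had at least 5 of the 7 genes, against 97.1 and 93% in the wild type of that day. The Helq transcript was at 15.9 to 26.6 CPM in null pools and at 15.9 to 28.1 CPM in wild-type pools of the same times, and as 3′ reads lie outside the deletion, its level checks nothing. The null line and the wild type also differ in how they were bred, and line and genotype cannot be told apart.

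Along the gonad, distal and proximal germ cells of E13.5 to E16.5 were compared in 8 pools and 19721 genes, with the pool as block. By edgeR 1 gene (0.00507%) was higher in distal cells and 0 (0%) lower, with 656 at an unadjusted p under 0.05 and the same counts by DESeq2, and no member was called. Tspan8 was at 0.50 ± 0.16 in distal relative to proximal cells (unadjusted p = 0.00287 in edgeR, adjusted p = 0.999), and Krt8 was at -0.80 ± 0.37 (unadjusted p = 0.0375 in edgeR, adjusted p = 0.999). At E16.5 Tspan8 was at 168 and 163 CPM in proximal cells and 210 and 168 CPM in distal cells. Krt8 was at 48.1 and 22.3 CPM in proximal and 32.4 and 14.9 CPM in distal cells, lower in both pools. The other 5 members had log2 differences of -0.61 to 0.41, with intervals that include 0.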

How the data were processed

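Single cells were sequenced with STRT-seq, and the authors deposited UMI counts per gene and cell. Per the submitters' processing notes these were made with UMI-tools, STAR and featureCounts on mm10. The use of strand in counting is not given in the sources used here. Library labels name only the library, so time-point, genotype, replicate, gate and gonad position were taken from the deposited table of cells.

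Cells with more than 2000 genes and 10000 to 1000000 UMIs were kept and classed as germ or somatic by the difference of mean log2(CPM + 1) over marker genes (margin 1). No doublet caller was run. UMIs were summed per pool and class (at least 10 cells) and tested with edgeR 4.0.16 (quasi-likelihood, TMM, filterByExpr, Benjamini-Hochberg, threshold 0.05) in R 4.3.3, with DESeq2 1.42.0 as alternative. Windows were E13.5 to E14.5, E16.5 to PND0 and PND5 to PND8. Counting error and intervals on counts treat UMIs as independent molecules.

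The members and lists were chosen with earlier results of these data known. Of each list, the 2 genes with the highest mean CPM in germ pools and those with the largest rise and fall in a tested comparison were named, with the 3 genes most like each member, which for Myog are not reported here. Ciita, Cd74, Csf1r, C1qb, Flt1, Cdh5, Kdr, Dsp, Jup, Mki67, Myf5 and Myf6 were added after their values were seen. Counts were simulated with 100 genes changed by log2 size 1, 100 by size 2 and all others unchanged. There the germ and somatic fit recovered 35% of changes of size 1 and 63% of size 2. The Helq fit recovered 30% and 57%, and the fit of the quiescent window 34% and 50%, none with the wrong sign. In the data far more genes were called in the fits of windows and classes, so these shares hold for the simulated setting only. Gene positions are from GENCODE M21, with 30464 of 31053 symbols matched.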

Additional observations from a re-analysis of the deposited data

Results flagged for a closer look

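In groups of 4 to 10 pools (7 genes, each window, germ or somatic cells), a pool that stood far from all others relative to the range of its group was looked for with Dixon's criterion. Of 56 groups tested 12 met it. Chance gives about 1 in 20 where all pools of a group share 1 distribution, but these groups join time-points of different levels and some hold zeros, so the number is not to be read against it. After birth, PND1 replicate 2 held 59.1 CPM of Zxdc in germ cells (next pool 28.9), 123.08 CPM of Tie1 (next 40.7) and 48.8 CPM of Myog (next 16.7). In germ cells, E14.5 replicate 1 held 0.51 CPM of Tie1 where the other pools before arrest held none. PND6 replicate 2 held 9.01 CPM of Mef2c (next 5.53), PND8 replicate 1 held 24.6 CPM of Krt8 (next 4.16), and PND5 replicate 2 held 40.7 CPM of Tspan8 (next 18.8).

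In somatic cells, Zxdc was at 28.9 CPM in PND8 replicate 1 (next 11.8). Tie1 was at 11.02 CPM in E13.5 replicate 2 (next 0.34) and at 0.83 CPM in PND6 replicate 2 (next 0.22). Krt8 was at 60.7 CPM in PND5 replicate 1 (next 27.95), and Tspan8 at 42.5 CPM in E17.5 replicate 2 (next 12.9).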

How the results depend on the processing

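Of 616 values recomputed under alternatives, 553 kept direction and side of the threshold or stayed within the spread. Germ against somatic cells: Krt18, not called, changed sign with DESeq2 (0.07), at least 20 cells a pool (0.01), no replicate block (0.60), and the other series of library names (0.78), and ran from -0.5 to 0.3 leaving out a replicate. Tie1 was not called with the gate alone (1.89), nor without replicate 1 (1.71). In the other library series Zxdc was at 0.86 (adjusted p = 0.157) and Krt8 at -1.30 (adjusted p = 0.0962), 4 members passed, and 5779 genes were higher and 3372 lower. With no replicate block 6531 were higher. Members past the threshold numbered 5 to 6 leaving out a replicate. The median of all genes was 0.31 with DESeq2, 0.885 with no filter, 0.945 at 20 cells, 0.185 with no replicate block and 0.585 in the other series.

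Helq null: genes higher and lower numbered 226 and 238 with DESeq2, 245 and 184 with no filter, 5 and 6 at E13.5 alone, 6 and 13 at E14.5 alone and 6 and 5 at E15.5 alone. Leaving out a replicate gave 11 to 192 higher, 8 to 238 lower and 0 to 1 members, with Mef2c at -0.04 to 0.40, Myog at -1.04 to 0.24, Krt18 at -0.53 to 0.40, Krt8 at -0.56 to 0.51 and Tspan8 at -1.56 to 1.3. Signs changed for Mef2c at a class margin of 2 (-0.03) and at E15.5 alone (-1.84), for Zxdc at E15.5 alone (-0.33), for Myog (0.93) and Krt8 (0.46) at E13.5 alone, for Krt18 at E13.5 (0.09) and E14.5 alone (0.36), and for Tspan8 at E13.5 (0.96) and E14.5 alone (0.27).

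Distal against proximal: 7 genes were higher and 7 lower with no filter, 0 higher with no replicate block, and 0 to 0 higher and 0 to 2 lower leaving out a replicate. Zxdc changed sign with no replicate block (0.02), and leaving out a replicate gave Myog -0.75 to 0.02 and Mef2c -0.04 to 0.93. The cause of these changes was not tested.

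The replicate numbers were not taken to pair the pools: deviations correlated over 0.1 in 22 pairs of time-points (20.95% of all pairs), with a median of 0.005 and a range of -0.317 to 0.62. With a replicate block the Helq fit called 24 genes higher, 31 lower and 0 members. The quiescent window had 10091 higher and 6584 lower (Krt8 2.14, Tspan8 3.11), and spermatogonia 7073 higher and 9623 lower (Krt8 -2.81, Tspan8 -3.28). Without PND8 Krt8 was at -3.35 and Tspan8 at -2.80. DESeq2 moved the median of all genes to 1.388 and -0.847, and leaving out a pool gave 1.123 to 1.526 and, without PND6 replicate 2, -0.613. Fits of the windows without a replicate number had no residual degrees of freedom and were not run.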

Other observations

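In pools of PND1 to PND4, germ cells with and without a UMI of the proliferation gene Mki67 were compared by the share that had at least 5 of the 7 genes after thinning, a split chosen after values were seen and not tested. At PND1 replicate 1 the share was 37.1% of the cells with an Mki67 UMI and 45.1% of those without, and at PND1 replicate 2 it was 85% and 75.8%. At PND2 it was 33.3% and 14.3% in replicate 1 and 18.3% and 35% in replicate 2. At PND3 it was 0.6% and 0% in replicate 1 and 16.7% and 28.6% in replicate 2, and at PND4 0% and 0% in replicate 1 and 6.0% and 20% in replicate 2. The direction thus differed between replicates at PND1, PND2 and PND3. From PND2 on, the cells without an Mki67 UMI numbered 3 to 20 in a pool.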
